A study of Mus musculus with 2 samples.

Results

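Chemokines and interleukins are secreted signals, and the entries described here are their genes and the genes of their receptors in the epithelium of the newborn mouse tongue. Members were chosen by gene name alone, as every entry whose symbol starts with Ccl, Cxcl, Cx3cl, Xcl, Ccr, Cxcr, Ackr or Il directly followed by a number. This rule found 142 of the 21628 entries of the table, with 140 symbols. RNA was sequenced from SOX2-GFPhigh and SOX2-GFPlow cells, sorted by brightness from dissociated lingual epithelium of P0 mice with the genotype Sox2GFP, in which GFP reports *Sox2* expression. Both populations carry the reporter, were pooled from many pups and are cuts on a range of brightness rather than pure cell types. Each is represented by 1 library, so no difference has a replicate check, and folds are descriptions with no p-value. *Sox2* itself was at 112 FPKM in GFPhigh and 59.0 FPKM in GFPlow cells, where FPKM is the authors' fragment count scaled to transcript length and to the mapped fragments of the library.

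Chemokines direct the movement of cells by binding receptors of the CCR, CXCR and CX3CR groups, while atypical receptors (ACKR) bind chemokines without the usual G protein signal and can remove them. Most interleukins act through receptors built from a ligand-binding chain and a shared partner, such as IL6ST (gp130) for the IL-6 family, IL1RAP for the IL-1 family, IL10RB for part of the IL-10 family and IL17RA for the IL-17 family. Receptors of the IL-1 and IL-17 families signal to NF-κB, and those of the IL-6 and IL-10 families and of IL-4 through JAK and STAT proteins. In stratified epithelia, keratinocytes both make such ligands and respond to them, and antagonists such as IL1RN and IL-36RN (*Il1f5*) block their own receptors.

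Because NF-κB acts at many chemokine promoters, the proximal promoters of the chemokine ligands enriched in GFPhigh cells are printed before their expression values. Each is the 200 bases upstream of the start in RefSeq (GRCm38.p6), read 5′ to 3′ on the gene's strand, with matches to the κB motif in capitals (where matches overlap they form 1 longer run). The windows are chr5:90891045-90891244 on the plus strand for *Cxcl1*, chr5:92348890-92349089 on the minus strand for *Cxcl10*, chr1:83116566-83116765 on the plus strand for *Ccl20* and chr13:56296552-56296751 on the minus strand for *Cxcl14*.
Cxcl1: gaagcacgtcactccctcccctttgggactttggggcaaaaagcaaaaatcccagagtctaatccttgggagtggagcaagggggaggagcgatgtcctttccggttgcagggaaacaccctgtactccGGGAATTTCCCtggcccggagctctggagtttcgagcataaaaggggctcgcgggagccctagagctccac
Cxcl10: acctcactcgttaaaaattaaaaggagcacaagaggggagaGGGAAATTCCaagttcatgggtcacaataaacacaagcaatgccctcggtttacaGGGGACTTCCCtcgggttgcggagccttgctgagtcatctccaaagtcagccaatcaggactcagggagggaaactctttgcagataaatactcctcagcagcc
Ccl20: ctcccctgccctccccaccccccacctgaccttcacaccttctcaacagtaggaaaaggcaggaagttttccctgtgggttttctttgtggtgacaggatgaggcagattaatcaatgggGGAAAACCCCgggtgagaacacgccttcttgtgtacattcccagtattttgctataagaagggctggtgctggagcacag
Cxcl14: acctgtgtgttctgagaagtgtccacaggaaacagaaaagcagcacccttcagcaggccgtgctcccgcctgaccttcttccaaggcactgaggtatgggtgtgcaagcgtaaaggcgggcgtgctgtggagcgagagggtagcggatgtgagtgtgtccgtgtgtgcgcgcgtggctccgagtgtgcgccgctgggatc
*Cxcl1* has 2 overlapping matches, *Cxcl10* has 3, *Ccl20* has 1 and the *Cxcl14* stretch has none. Promoters of chemokine ligands that were not enriched are not printed for comparison. Whether these matches bear on the enrichment was not tested.

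In windows from 250 bases before to 50 after the start, searched on both strands, a κB match was present in 20 of 130 windows of members (15.4%), and in 8.46% of all 32851 windows. The STAT motif TTCNNNGAA was in 10.8% of the members' windows and 8.3% of all windows. For the forkhead motif TGTTTNC the shares were 22.3% and 20.5%, and for the SOX motif ACAATG they were 9.23% and 12.6%. A match is a description of the letters and not a bound site. Windows were found for 108 of the symbols. Among the enriched members described below, *Il4ra* also held a κB match. No κB match was found in the windows of *Il17rc*, *Il1f5*, *Il1rn*, *Il20rb*, *Cxcl12*, *Il11ra1*, *Il6ra* or *Il6st*. The enriched members *Il10rb* and *Cxcl17* had no window and were not searched.

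Most of these genes were expressed at low levels. Of the 142 entries, 32 reached 5 FPKM in at least 1 population (22.5%, against 49.8% of the 21590 entries analyzed), 22 were between 1 and 5 FPKM, 63 were above 0 but under 1 FPKM, and 25 were listed at 0 in both. Receptors of interleukins and ligands of chemokines made up most of the well expressed entries. At least 5 FPKM was reached by 15 of 39 interleukin receptor entries and 11 of 39 chemokine ligands, but by 2 of 36 interleukin ligands and 0 of 17 chemokine receptors. All interleukin antagonists and decoys except 1 of 6 were above 1 FPKM, and 3 of them reached 5 FPKM. Summed over members, expression was 1598 FPKM in GFPhigh and 1372 FPKM in GFPlow cells, or 0.15% and 0.137% of all FPKM. *Il17rc* alone gave 25% of the members' sum in GFPhigh cells, and *Il6st* gave 21.7% in GFPlow cells.

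**Figure D1:**
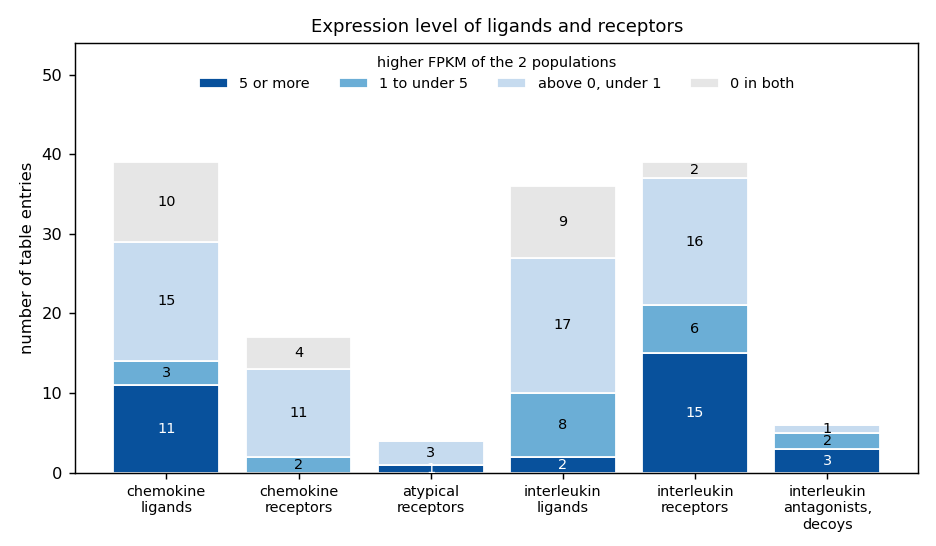
Number of table entries (vertical axis) of each role, stacked by the higher FPKM of the 2 populations. Of the chemokine receptors none reached 5 FPKM, while 15 of the 39 interleukin receptor entries did.

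A member was counted as enriched in a population where its FPKM was at least 5 and exceeded that of the opposing population at least 1.5-fold. By this rule 10 members (7.04%) were enriched in GFPhigh cells, beside 4.72% of all entries analyzed, and 5 members (3.52%) were enriched in GFPlow cells, beside 4.44% of all entries. The remaining 17 members at 5 FPKM or more were under 1.5-fold. The shares above include entries too low to be called, which are more frequent among members. Of the 32 members at 5 FPKM or more in at least 1 population, 10 and 5 were enriched. Of all 10760 entries at that level, 1020 and 958 were. Over the 117 members above 0 in either population, the median difference in log2(FPKM + 1), GFPhigh minus GFPlow, was 0.014, and over all 17283 such entries it was -0.022. When FPKM were rescaled to TPM, so that both libraries have the same total, every log2 ratio changed by -0.10 and 7 and 5 members were enriched, beside 3.77% and 5.58% of all entries. GFPhigh enrichment was found for chemokine ligands (*Cxcl14*, *Cxcl10*, *Cxcl1*, *Ccl20*), for IL-1 family antagonists (*Il1rn*, *Il1f5*) and for chains of the receptors of IL-17, IL-10 family and IL-4 ligands (*Il17rc*, *Il20rb*, *Il10rb*, *Il4ra*). GFPlow enrichment was found for *Cxcl12*, *Cxcl17* and all 3 IL-6 family receptor chains that reached 5 FPKM (*Il6ra*, *Il6st*, *Il11ra1*).

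**Figure D2:**
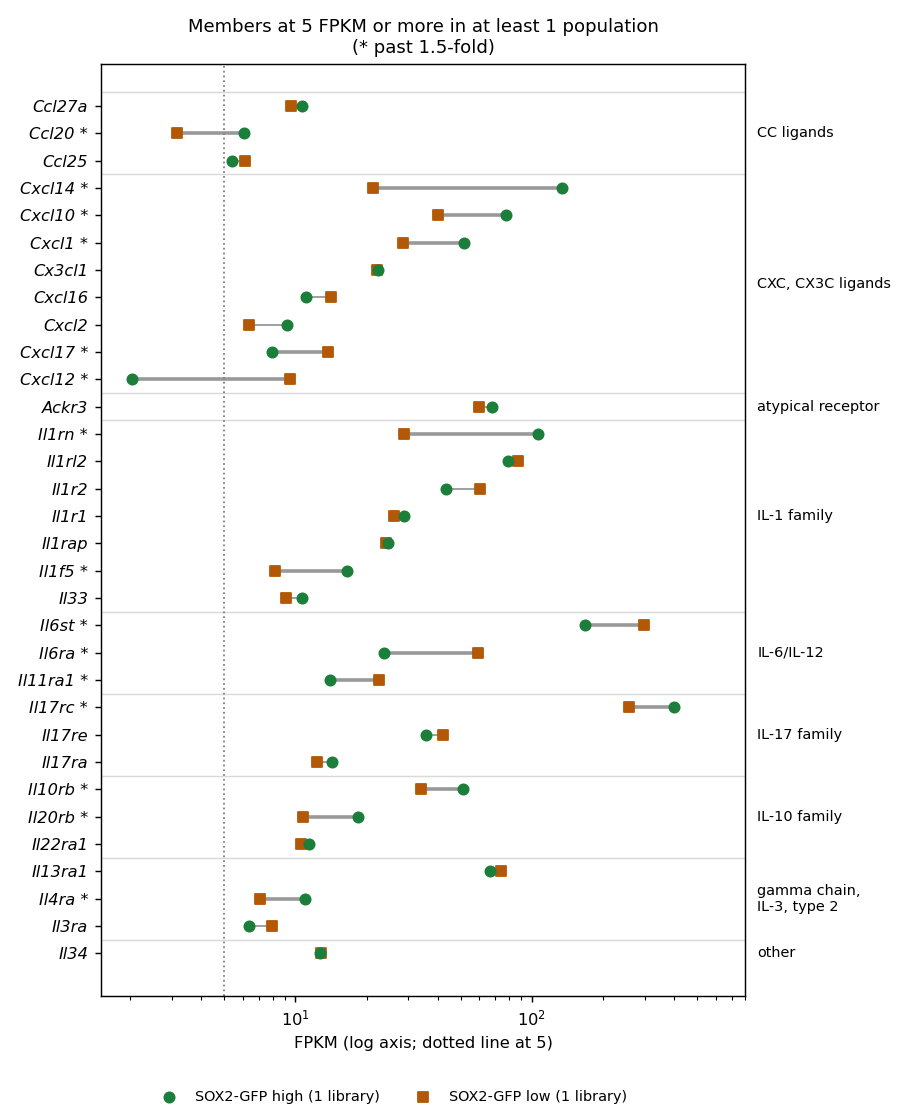
FPKM (log axis) in GFPhigh and GFPlow cells, 1 library each, of the 32 members at 5 FPKM or more in at least 1 population. The widest gaps are those of *Cxcl14* (134 against 21.4 FPKM) and *Cxcl12* (2.04 against 9.52 FPKM).

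**Figure D3:**
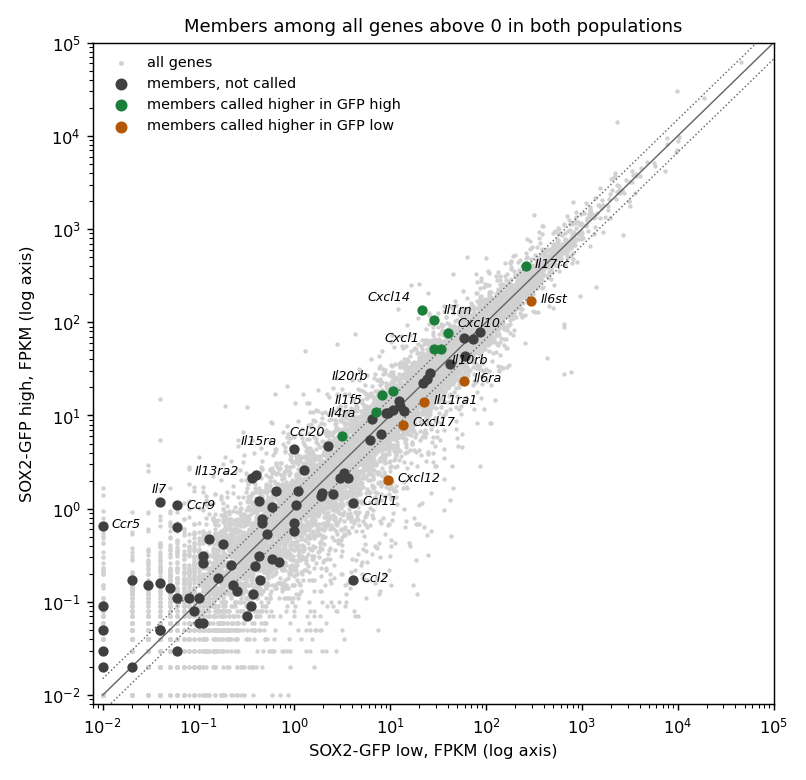
FPKM in GFPhigh (vertical, log axis) against GFPlow cells (horizontal, log axis) for all entries above 0 in both (grey) and for members (large points); the solid line marks equal FPKM and the dotted lines 1.5-fold. The 10 members enriched in GFPhigh and 5 enriched in GFPlow cells are colored, and members far from the line at the lower left have few reads.

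Among chemokine ligands, *Cxcl14* showed the largest fold of any member at 5 FPKM or more. It is a chemokine expressed constitutively by many epithelia, lies at chr13:56288643-56296551 in mm10, and was at 134 FPKM in GFPhigh and 21.4 FPKM in GFPlow cells, 6.29-fold higher in the former. *Cxcl10*, an interferon-induced ligand of CXCR3 at chr5:92346638-92348889, was at 77.7 and 40.1 FPKM (1.94-fold). *Cxcl1*, a neutrophil attractant that binds CXCR2, lies at chr5:90891241-90893115 and was at 51.6 and 28.4 FPKM (1.82-fold). These 3 ligands were well expressed in both populations and higher in GFPhigh cells. *Ccl20*, the ligand of CCR6 (chr1:83116766-83119167), was at 6.04 and 3.15 FPKM (1.92-fold), and is the only member that reached 5 FPKM in GFPhigh cells alone. *Cxcl2*, a neighbor of *Cxcl1* with the same receptor, was just under the fold minimum at 9.25 and 6.39 FPKM (1.45-fold).

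*Cxcl12*, the ligand of CXCR4 and ACKR3 that is typical of mesenchyme, showed the opposite pattern, at 2.04 FPKM in GFPhigh and 9.52 FPKM in GFPlow cells (4.67-fold higher in GFPlow; chr6:117168535-117181367). Below 5 FPKM, *Ccl2*, a monocyte attractant, was at 0.17 FPKM (about 4 reads) and 4.08 FPKM (about 137 reads). *Ccl11*, the eosinophil attractant eotaxin, was at 1.14 and 4.09 FPKM (3.59-fold higher in GFPlow). In the same direction, the 6 fibroblast markers (*Col1a1*, *Col1a2*, *Col3a1*, *Dcn*, *Lum*, *Pdgfra*) were all lower in GFPhigh cells, summing to 409 FPKM there and 1816 FPKM in GFPlow cells, with 5 of 6 enriched in GFPlow by the same rule. *Col3a1* was at 193 and 966 FPKM. The 5 Schwann cell markers were likewise all lower in GFPhigh cells, with a sum of 67.2 FPKM against 252 FPKM. Neither list has a marker at 0. The part of these cells in the chemokine values was not tested, and in sorted bulk cells fewer cells of a type cannot be told apart from less RNA per cell.

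*Cxcl17*, a chemokine of mucosal epithelia at chr7:25400053-25412886, was at 7.97 FPKM in GFPhigh and 13.7 FPKM in GFPlow cells (1.72-fold higher in GFPlow). The other chemokine ligands at 5 FPKM or more were similar in both. *Cx3cl1*, a membrane-anchored chemokine, was at 22.4 and 22.2 FPKM. *Ccl27a*, a skin chemokine that binds CCR10, was at 10.7 and 9.56 FPKM, and *Ccl25*, the ligand of CCR9, was at 5.39 and 6.12 FPKM. Another entry with the symbol *Ccl27a* was listed at 0 in both populations. *Cxcl16*, which also exists in a membrane-bound form, was at 11.1 and 14.1 FPKM (1.27-fold higher in GFPlow). The values of the expressed *Ccl27a* entry are uncertain, since 45% of the 50-nt windows of its exons also occur in other genes. Those of *Cxcl16* share 16.9%.

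Neighboring chemokine genes differed from each other. In the CXC locus on chr5 (7 members over 1590 kb), *Cxcl1*, *Cxcl2* and *Cxcl10* were the members at 5 FPKM or more, whereas *Cxcl5* (0.08 and 0.09 FPKM), *Cxcl3* (0.09 and 0.35 FPKM), *Cxcl9* (0 and 0.02 FPKM) and *Cxcl15* (0 in both) stayed under 1 FPKM. In the CC locus on chr11 (11 members over 1629 kb), only *Ccl2* and *Ccl11* passed 1 FPKM. The other 9, among them the leukocyte chemokines *Ccl3*, *Ccl4* and *Ccl5*, were at 0.43 FPKM or less in both populations.

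**Figure D4:**
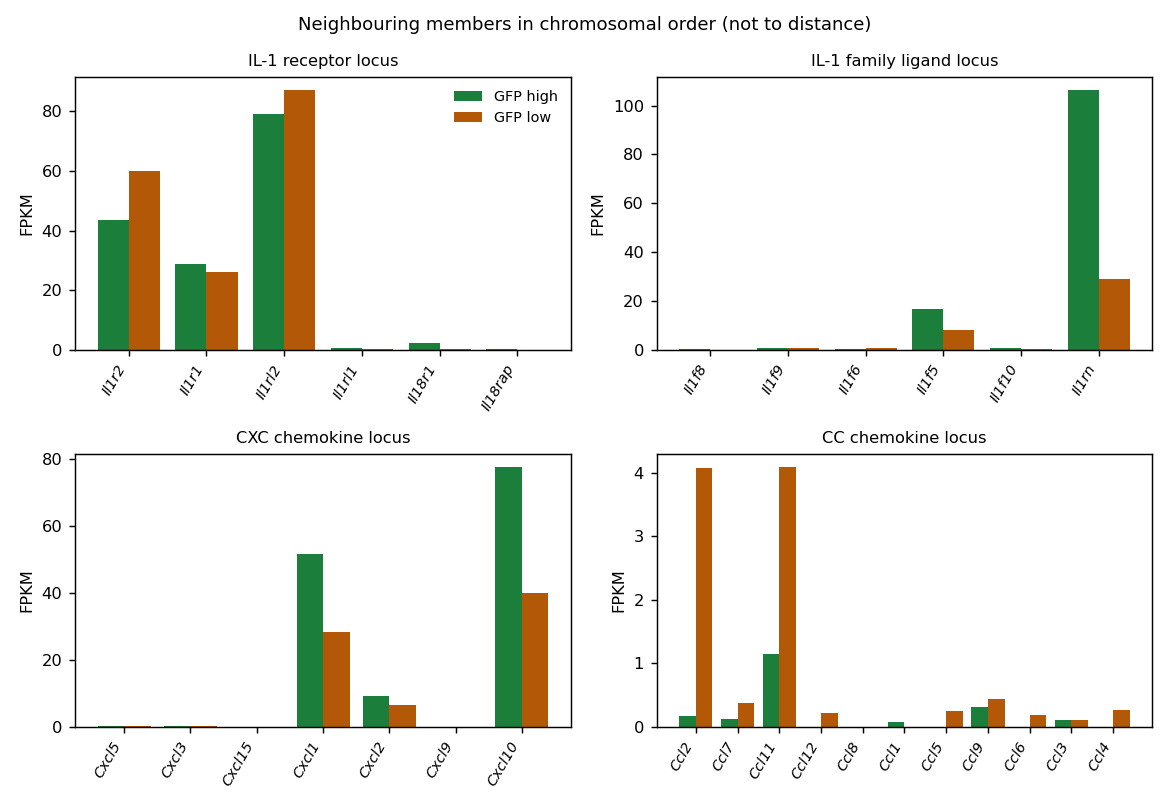
FPKM in GFPhigh and GFPlow cells (1 library each) of members of 4 gene clusters, in their order along the chromosome. In the IL-1 ligand cluster, *Il1f5* and *Il1rn* exceed 5 FPKM while the 4 other members are at 0.77 FPKM or less.

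Receptors for these chemokines were scarce. *Cxcr4*, the signaling receptor of CXCL12, was at 1.37 FPKM in GFPhigh and 1.91 FPKM in GFPlow cells. *Cxcr2* (0.17 and 0.02 FPKM), *Cxcr3* (0.02 and 0 FPKM), *Ccr6* (0 and 0.02 FPKM) and *Ccr10* (0.18 and 0.16 FPKM), the receptors of the ligands above, were all under 1 FPKM. *Ccr9* was at 1.09 and 0.06 FPKM, but 20.1% of its 50-nt windows occur in other genes and 19.0% of its exons overlap genes on the opposite strand, *Slc6a20a* among them. By contrast *Ackr3*, the atypical receptor that takes up CXCL12, was at 67.9 and 59.5 FPKM, 49.6-fold above *Cxcr4* in GFPhigh cells and 31.2-fold above it in GFPlow cells. The ratio of *Ackr3* to *Cxcl12* FPKM was 33.3 and 6.25, a difference that lies mostly in *Cxcl12*.

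Leukocyte markers, which bear on genes of immune cells, were low. Of 13 such markers in the table, 8 were under 1 FPKM and 3 of them (*Cd3g*, *Cd207*, *Ncr1*) were listed at 0 in both populations, and the list summed to 26.0 FPKM in GFPhigh and 22.3 FPKM in GFPlow cells. *Ptprc* (CD45), which defines leukocytes, was at 0.06 and 0.02 FPKM. *Cd68*, which other cells can also express, was the highest of the list at 14.0 and 15.3 FPKM. The mast cell protease gene *Cpa3* was the only marker enriched, at 5.89 FPKM in GFPhigh and 0.99 FPKM in GFPlow cells.

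In the IL-1 family, the receptor antagonist genes were higher than the agonists they oppose. *Il1rn*, the IL-1 receptor antagonist (chr2:24336853-24351494), was at 106 FPKM in GFPhigh and 28.9 FPKM in GFPlow cells (3.68-fold). *Il1f5*, the IL-36 receptor antagonist (chr2:24276954-24283426), was at 16.6 and 8.22 FPKM (2.02-fold). The agonists were much lower. *Il1a* was at 1.56 and 1.09 FPKM and *Il1b* at 2.6 and 1.25 FPKM, so *Il1rn* was 68.2-fold above *Il1a* in GFPhigh cells and 26.5-fold above it in GFPlow cells. *Il1f6*, *Il1f8* and *Il1f9*, the IL-36 agonists, were at 0.69 FPKM or less in both populations. *Il33*, an alarmin stored in nuclei, was similar at 10.6 and 9.13 FPKM, and *Il18* was at 4.74 and 2.25 FPKM (2.11-fold) while its soluble inhibitor *Il18bp* was at 2.43 and 3.31 FPKM.

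Markers of suprabasal keratinocytes moved in the same direction as *Il1rn*, *Il1f5* and *Cxcl14*. All 7 (*Krt1*, *Krt4*, *Krt10*, *Krt13*, *Sbsn*, *Krtdap*, *Dsg1a*) were higher in GFPhigh cells and 5 were enriched there, with sums of 73331 and 32580 FPKM and none at 0. The 7 basal keratinocyte markers were all lower in GFPhigh cells, summing to 25796 and 32952 FPKM, with 1 enriched in GFPlow. The part of these cells in the values of the antagonists and of *Cxcl14* was not tested.

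The chains of the IL-1 and IL-36 receptors were well expressed and under 1.5-fold apart. The signaling receptor *Il1r1* was at 28.9 and 26.1 FPKM and its partner *Il1rap* at 24.6 and 24.2 FPKM. *Il1rl2*, the IL-36 receptor, was at 79.1 and 87.2 FPKM. The decoy receptor *Il1r2*, which binds IL-1 without signaling, was at 43.4 FPKM in GFPhigh and 60.2 FPKM in GFPlow cells (1.39-fold higher in GFPlow), and exceeded *Il1r1* 1.5-fold and 2.31-fold. *Il1r1*, *Il1rl2* and *Il1r2* lie in 1 cluster on chr1 (6 members over 478 kb) with 3 that were low, namely *Il1rl1*, the IL-33 receptor (0.42 and 0.18 FPKM), *Il18r1* (2.16 and 0.36 FPKM) and *Il18rap* (0.09 and 0.01 FPKM).

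The IL-17 receptor chain *Il17rc* (chr6:113471427-113483140) had the highest FPKM of any member in GFPhigh cells, at 399 FPKM beside 258 FPKM in GFPlow cells (1.55-fold, and 1.45-fold on the TPM scale). Its partner *Il17ra*, the chain shared by IL-17 receptors, was at 14.2 and 12.3 FPKM. *Il17rc* was therefore 28.1-fold above *Il17ra* in GFPhigh cells and 21-fold above it in GFPlow cells. *Il17re*, the IL-17C receptor, was at 35.6 and 42.3 FPKM. *Il17rb*, the receptor of IL-25, was lower, at 2.16 and 3.6 FPKM. The ligands with an entry were scarce, with *Il17a* at 0 in both populations and *Il17f* at 0.31 and 0.11 FPKM. *Il25* was at 0.17 and 0.44 FPKM and *Il17d* at 2.14 and 3.01 FPKM. No member is named *Il17c*, so the ligand of *Il17re* has no value here.

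All IL-6 family receptor chains at 5 FPKM or more were enriched in GFPlow cells. The shared chain *Il6st* (chr13:112464070-112510086) was at 169 FPKM in GFPhigh and 298 FPKM in GFPlow cells (1.77-fold). *Il6ra*, which binds IL-6 (chr3:89864059-89913196), was at 23.6 and 59.4 FPKM (2.52-fold). *Il11ra1*, which binds IL-11 (chr4:41699989-41769474), was at 14.0 and 22.6 FPKM (1.62-fold), although 46.3% of its 50-nt windows occur in other genes. The fibroblast and Schwann cell marker sums given for *Cxcl12* and the basal keratinocyte marker sum (25796 FPKM in GFPhigh and 32952 FPKM in GFPlow cells, all 7 lower in GFPhigh) go the same way, and the part of these cells in the receptor values was not tested. The ligands were low, with *Il6* at 0.71 and 0.46 FPKM and *Il11* at 1.48 and 1.93 FPKM.

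Of the 3 IL-10 family receptor chains at 5 FPKM or more, 2 were enriched in GFPhigh cells. *Il20rb*, a chain of the receptors for IL-19, IL-20 and IL-24 (chr9:100457719-100486788), was at 18.4 and 10.7 FPKM (1.71-fold). *Il10rb*, the shared second chain (chr16:91406164-91425834), was at 51.1 and 33.9 FPKM (1.51-fold, and 1.41-fold on the TPM scale), close to the fold minimum and with 13.9% of its 50-nt windows in other genes. *Il22ra1*, the IL-22 binding chain, was nearly equal at 11.4 and 10.6 FPKM, and *Il20ra* was at 0.47 and 0.13 FPKM. Their ligands *Il20* and *Il22* were at 0 in both populations, *Il19* was at 0.06 and 0.11 FPKM and *Il24* at 0.29 and 0.58 FPKM.

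Among type 2 receptors, *Il4ra* (chr7:125552120-125579474), the chain that binds IL-4, was at 11.0 FPKM in GFPhigh and 7.11 FPKM in GFPlow cells (1.55-fold, and 1.45-fold on the TPM scale). *Il13ra1*, its partner in the receptor found on non-hematopoietic cells, was at 66.4 and 73.7 FPKM. The decoy *Il13ra2* was at 2.3 and 0.4 FPKM (5.75-fold). The ligands *Il4* (0 in both) and *Il13* (0 and 0.08 FPKM) were at or near 0. *Il3ra* was at 6.34 and 7.93 FPKM, and *Il34*, a ligand of the CSF1 receptor, was equal at 12.7 and 12.8 FPKM.

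**Figure D5:**
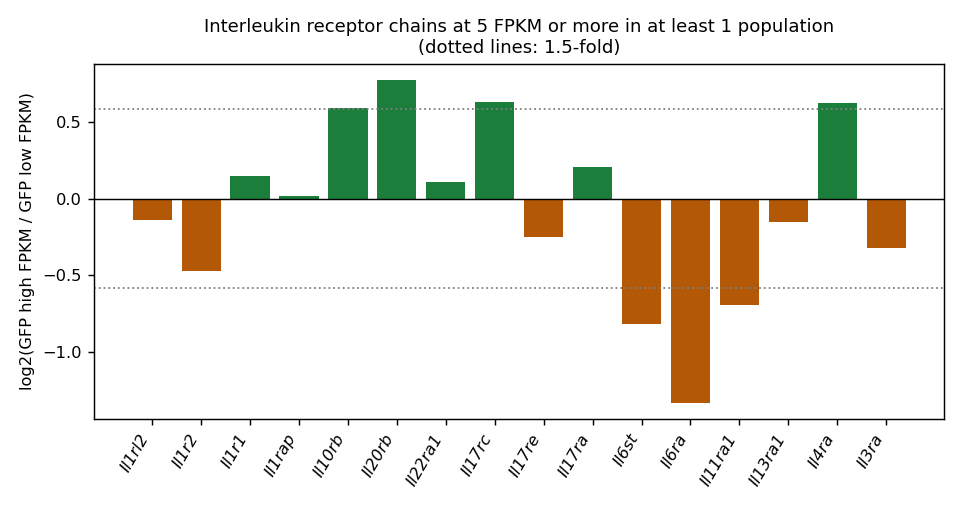
Interleukin receptor chains at 5 FPKM or more in at least 1 population, the decoy receptor *Il1r2* included, as log2 of GFPhigh over GFPlow FPKM (vertical axis, 1 library each), with dotted lines at 1.5-fold either way. The IL-6 family chains *Il6ra*, *Il6st* and *Il11ra1* pass the lower line, and *Il20rb*, *Il4ra*, *Il17rc* and *Il10rb* pass the upper line.

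Several members between 1 and 5 FPKM in GFPhigh cells were lower in GFPlow cells. *Il7*, a lymphocyte growth factor that epithelia also make, was at 1.17 FPKM (about 173 reads) and 0.04 FPKM (about 8 reads). *Il15*, of the same cytokine class, was at 1.2 and 0.43 FPKM, and its receptor chain *Il15ra* was at 4.41 and 1.0 FPKM (4.41-fold). *Il5ra* was at 1.86 FPKM (about 169 reads) and listed at 0 in GFPlow cells. *Il23a*, a subunit of IL-23, was at 1.55 and 0.65 FPKM. Of the remaining members at this level, *Il17rd* (1.09 and 1.03 FPKM), *Ccl17* (0.71 and 1.0 FPKM) and *Il4i1* (1.05 and 0.59 FPKM) were low in both populations, and *Il4i1* shares 77.1% of its 50-nt windows with other genes. In the other direction, *Il2rg*, the shared gamma chain, was at 1.44 and 2.55 FPKM, with 27.5% of its 50-nt windows in other genes. *Il10* had 0.63 and 0.06 FPKM, and in GFPlow cells this corresponds to 3 reads or fewer, so no fold is given.

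Genes downstream of these receptors, taken from lists of known pathway members, were mostly expressed and mostly under the fold minimum. The counts per list are small and stand beside 4.72% (GFPhigh) and 4.44% (GFPlow) of all entries analyzed. Of all 10760 entries at 5 FPKM or more in at least 1 population, 1020 and 958 were enriched. Of 19 JAK, STAT and SOCS genes, 18 reached 5 FPKM and 1 was enriched, *Socs1*, a feedback inhibitor, at 9.40 FPKM in GFPhigh and 5.45 FPKM in GFPlow cells (1.72-fold). *Stat3*, which signals for IL6ST, was nearly equal at 210 and 215 FPKM, and *Socs3* was at 113 and 141 FPKM. In the NF-κB list 1 of 11 was enriched, the inhibitor gene *Nfkbia*, at 560 and 261 FPKM (2.14-fold). *Rela*, a subunit of NF-κB itself, was at 88.7 and 79.9 FPKM. Of 14 IL-1 and Toll-like receptor adaptors, 2 were enriched in GFPhigh cells and none in GFPlow cells. *Pycard*, which builds the inflammasome that activates caspase-1, was at 180 and 63.0 FPKM (2.86-fold), and the kinase gene *Irak2* was at 18.8 and 8.22 FPKM (2.29-fold). *Casp1*, the protease, was itself at 2.26 and 0.14 FPKM.

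In the IL-17 pathway list 1 of 11 was enriched in GFPhigh cells, the antimicrobial gene *S100a9* (6.66 and 3.41 FPKM, 1.95-fold), and the adaptor gene *Traf3ip2* was at 73.9 and 94.1 FPKM. Of 5 interferon receptor genes, *Ifngr2* was enriched in GFPhigh cells (29.3 and 18.7 FPKM, 1.57-fold). None of the 7 colony-stimulating factor genes was enriched, nor were any of the 12 gp130 and TSLP partners that the name rule leaves out. Of 9 chemokine-related genes outside the rule, 1 was enriched in GFPlow cells, *Rarres2*, the gene of the chemoattractant chemerin, at 1.65 and 14.8 FPKM (8.98-fold).

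Depth limits the lowest values. The FPKM steps of low genes correspond to roughly 27000000 reads in the GFPhigh and 36000000 in the GFPlow library, against about 75000000 in the sample descriptions, so the read numbers given above are approximate. For members listed at 0 (17 in GFPhigh alone and 7 in GFPlow alone), expression was not detectable at this depth.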

How the data were processed

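Single-end 50-nt RNAseq reads of SOX2-GFPhigh and SOX2-GFPlow cells (1 library each, about 100000 cells, stranded kit) were trimmed by the authors with Trimmomatic 0.36, mapped to mm10 with GSNAP and quantified as FPKM with Cufflinks 2.2.1, per the submitters' processing notes. The authors deposited FPKM rounded to 2 decimals. The columns are named means but were read as 1 library each. Their fold column (ratio of the FPKM columns) was not used. Whether counting used strand is not given in the sources used here.

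Of 21628 entries, 21590 were analyzed; the rest comprised 17 with no number and 21 non-coding genes. Folds are ratios of FPKM, with none against 0 or against 3 reads or fewer unless the member reached 5 FPKM. Medians use log2(FPKM + 1), which understates changes of low genes. The rule for enrichment (5 FPKM in the higher population, 1.5-fold) follows the study's Results, and no test was run. Positions, exon lengths and shared 50-nt windows came from GENCODE M21, which matched 137 members. Depth was estimated from the steps of low FPKM, of which 52.8% (GFPhigh) and 49.0% (GFPlow) lay near whole reads, against 30% by chance at a fixed depth. Since each depth was picked to maximize that share, no counts were recovered. Promoters are from RefSeq.

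Every member at 5 FPKM or more is named, lower ones if at 1 FPKM or as partners of named ones or as neighbors in a gene cluster, and other genes only from the pathway and marker lists. Markers of endothelium (38.1 and 27.9 FPKM summed in GFPhigh and GFPlow) and skeletal muscle (18.4 and 19.0 FPKM) were also read. Members and lists were chosen with earlier results of these data known. Alternatives were other FPKM and fold minimums, pseudocounts and scalings. Scripts used Python 3.11.15 with pandas 2.3.3 and numpy 2.4.6 and were tested on simulated data.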

Additional observations from a re-analysis of the deposited data

How the results depend on the processing

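With a minimum of 1 FPKM, 21 members (14.8%) were enriched in GFPhigh and 9 (6.34%) in GFPlow cells. The shares of all entries were 7.14% and 7.24%. Without a minimum, but with both populations above 0, the counts were 37 (26.1%) and 22 (15.5%), beside 11.8% and 11.5% of all entries. At 2-fold they were 3 and 2 (2.08% and 2.16% of all entries, as for the shares in parentheses below). The change follows from the rule in each case. At 5 FPKM in both populations they were 9 and 4 (3.6% and 2.93%), losing *Ccl20* and *Cxcl12*, and at 10 FPKM 9 and 4 (3.8% and 3.27%). On the TPM scale 7 and 5 were enriched (3.77% and 5.58%), losing *Il17rc*, *Il10rb* and *Il4ra*, and with a pseudocount of 1 the counts were 8 and 5 (4.35% and 4.04%), losing *Il10rb* and *Il4ra*. A pseudocount of 0.1 gave 10 and 5 (4.66% and 4.37%), as did scaling by the median ratio of 0.973 (5.13% and 3.96%). Of 128 folds recomputed under other scalings and pseudocounts, 5 changed their call and 0 of the enriched members turned direction. The median log2 difference over members was between -0.002 (TPM) and 0.071 (members averaging at least 1 FPKM).

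No paired analysis was possible because each population has 1 library; for the same reason no replicate was left out. Values near 0 rest on few reads, and reads from windows shared between genes cannot be assigned.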
